A study of Mus musculus with 6 samples.

Results

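Macrophages are the main resident immune cells of the testis, and this account follows 10 of their genes in mouse testes at postnatal day 14. The genes were 6 macrophage markers (Adgre1, Csf1r, Cd163, Mrc1, C1qa and Cx3cr1) and 4 genes of MHC class II antigen presentation (H2-Aa, H2-Ab1, H2-Eb1 and Cd74), found by symbol among the 50763 gene symbols counted. All 10 were present and all 10 had enough counts to be tested. The study compared 3 wild-type samples (WT) with 3 samples of the genotype called sKO, in which Rif1, a regulator of DNA replication timing and double-strand break repair, was conditionally deleted in pre-meiotic germ cells. Both groups are whole testis at the same age, so the macrophages themselves are not the cells described as carrying the deletion. The labels name neither the Cre driver, the alleles, the strain nor the animal behind each sample, and p-values therefore measure the spread between samples, which may be technical.

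Mouse testis macrophages are commonly described as a pair of populations. Interstitial macrophages lie among the Leydig cells, depend on signalling through the CSF1 receptor and carry little MHC class II, while peritubular macrophages lie on the tubule wall and carry class II at their surface. Class II molecules are pairs of an alpha and a beta chain that present peptides from taken-up material to CD4 T cells; the invariant chain CD74 guides them to the compartment where peptides are loaded. In bulk RNA, fewer cells of a type and less RNA per cell cannot be told apart.

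The libraries held 15941672 to 18296594 counts each. The 10 genes together took 1772 to 2388 counts of a library, or 0.00976% to 0.0142%. CPM below are counts scaled to a common library total. The targeted gene Rif1 had 96.3, 83.5 and 129 CPM in the WT libraries and 41.9, 46.3 and 49.1 CPM in the sKO libraries, so that every sKO value was below every WT value (edgeR adjusted p = 0.0145). Testis markers were abundant, with 1230 to 1609 CPM summed over 8 Sertoli cell markers and 1266 to 2759 CPM over 8 germ cell markers. Of the germ cell markers 7 of 8 had negative estimates, and 1 (Tex101) passed the edgeR test, while DESeq2 called 5 lower and limma-voom 0. The spermatocyte genes Ldhc and Piwil1 had log2 fold changes of -4.16 and -3.45 (edgeR adjusted p = 0.0657 and 0.0933). Epididymis transcripts reached 147 CPM over 7 markers in sKO library 1, against 1.43 to 16.4 CPM in the other 5 libraries.

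None of the 10 genes passed the test between sKO and WT. On the log2 scale the median fold change was 0.39 over the 6 macrophage markers and 0.57 over the 4 class II genes, beside 0.03 over all 18860 genes tested. At an adjusted p under 0.05, edgeR called 0 of the 10, and DESeq2 and limma-voom also called 0. Over all genes, edgeR called 0.0318% higher and 1.27% lower, DESeq2 0.297% and 3.82%, and limma-voom 0.0% in each direction. At an unadjusted p under 0.05, 0 macrophage markers and 2 class II genes (H2-Eb1 and Cd74) had higher estimates, and 5.06% of all genes did. For the same 2 genes the groups did not overlap, with all sKO libraries above all WT libraries, as for 9.59% of genes tested; for a further 10.6% of genes, and for 0 members, all sKO libraries were below. Estimates were above 0 for 5 of 6 macrophage markers and 3 of 4 class II genes, against 55.3% of all genes; 44.7% of all genes had estimates below 0.

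**Figure D1:**
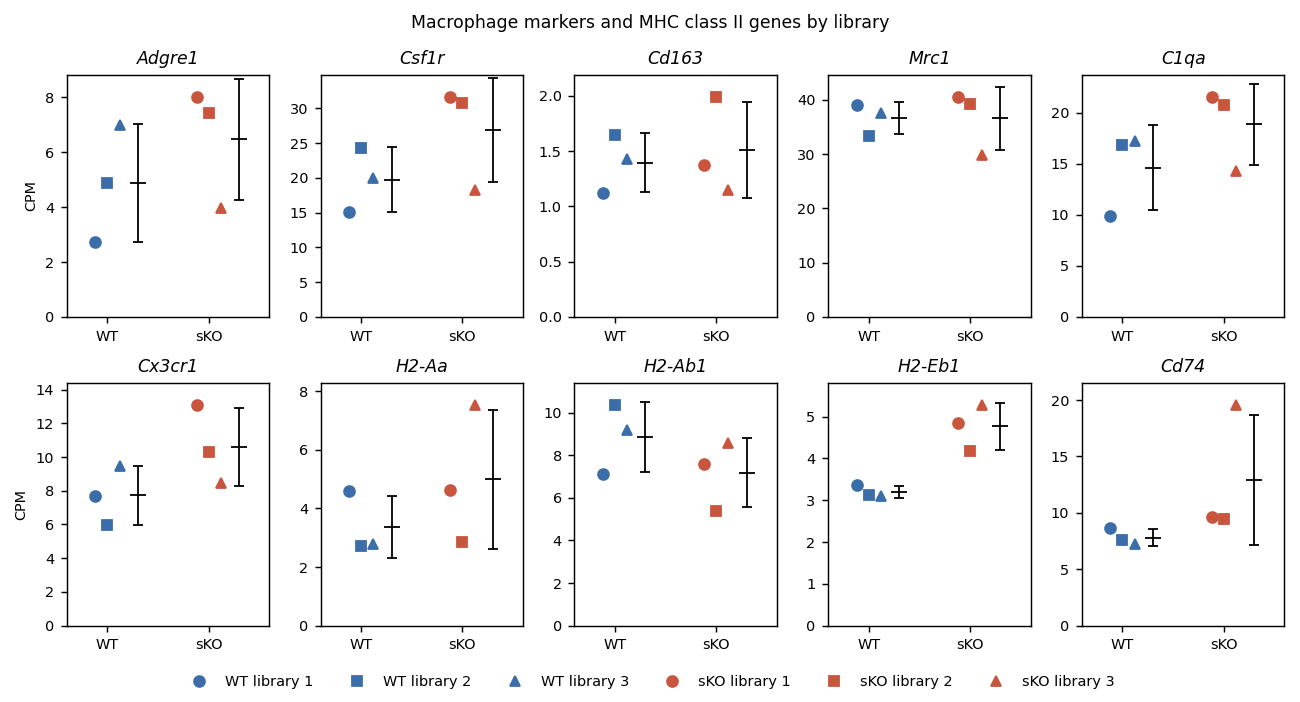
Level of each gene in CPM (vertical axes, from 0) in the 3 WT and 3 sKO libraries; points are libraries, and the bar beside them is the mean with the SD. The WT and sKO libraries are separate for H2-Eb1 and Cd74, and overlap for the other 8 genes.

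The receptors that define macrophages came first. Csf1r encodes the receptor for the growth factors CSF1 and IL-34, on which these cells depend. It stood at 15.0, 24.3 and 19.9 CPM in WT libraries 1 to 3 and at 31.7, 30.8 and 18.3 CPM in sKO libraries 1 to 3. Libraries 1 and 2 of sKO lay above all WT libraries, while sKO library 3 lay below WT libraries 2 and 3. The log2 fold change of Csf1r was 0.44 (SE 0.23, 95% interval -0.07 to 0.96, edgeR adjusted p = 0.450). In the GENCODE M21 annotation 873 of the 5774 exonic bases of Csf1r are shared with Hmgxb3 on the opposite strand; the strand setting of the counting is not given, so reads there cannot be told apart.

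Adgre1, the F4/80 antigen by which mouse macrophages are commonly stained, followed the same libraries. It had 2.74, 4.88 and 7.01 CPM in WT and 8.03, 7.43 and 3.95 CPM in sKO, so that sKO libraries 1 and 2 were the highest and sKO library 3 fell among the WT values. Its log2 fold change was 0.41 (SE 0.35, 95% interval -0.38 to 1.20, edgeR adjusted p = 0.661). Cx3cr1, the receptor for the membrane-bound chemokine fractalkine, had 7.67, 6.0 and 9.49 CPM in WT and 13.1, 10.3 and 8.45 CPM in sKO. Of the sKO libraries, only library 3 was inside the WT range. Cx3cr1 had the smallest p of the 6 markers (log2 fold change 0.46, SE 0.22, 95% interval -0.03 to 0.94, edgeR unadjusted p = 0.0635, adjusted p = 0.404). An antisense transcript, Gm33858, shares 78 of its 4505 exonic bases.

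The scavenger receptors had smaller estimates than these, a contrast that was not tested. Mrc1, the mannose receptor CD206, which lymphatic and sinusoidal endothelium also carries, had 39.1, 33.5 and 37.7 CPM in WT and 40.6, 39.3 and 29.9 CPM in sKO. Here too sKO libraries 1 and 2 were the highest, by a small margin, and sKO library 3 was the lowest. The WT mean was 36.7 ± 2.92 CPM and the sKO mean 36.6 ± 5.87 CPM (SD, n = 3 each). The log2 fold change of Mrc1 was -0.01 with a 95% interval of -0.30 to 0.29 (edgeR adjusted p = 0.990), the narrowest interval among the 10 genes. Cd163, the haemoglobin scavenger receptor, was the least abundant gene, with 20 to 33 counts a library. It had 1.12, 1.65 and 1.43 CPM in WT and 1.38, 1.99 and 1.15 CPM in sKO, and its interval was wide (log2 fold change 0.11, 95% interval -0.62 to 0.84, edgeR adjusted p = 0.918).

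C1qa encodes a chain of C1q, the recognition molecule of the classical complement pathway, which tissue macrophages make. It had 9.85, 16.8 and 17.2 CPM in WT and 21.6, 20.7 and 14.3 CPM in sKO. The sKO libraries 1 and 2 were the highest, and sKO library 3 was below WT libraries 2 and 3. Its log2 fold change was 0.37 (SE 0.23, 95% interval -0.14 to 0.88, edgeR adjusted p = 0.525). C1qb and C1qc, which encode the other chains of the same molecule, had log2 fold changes of 0.38 and 0.24 (edgeR adjusted p = 0.546 and 0.759). All 3 chains were lowest in WT library 1, at 9.85, 10.2 and 8.11 CPM.

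The sum over the markers also differed between libraries of a group, although single markers did not all follow it. The 6 summed to 75.5, 87.1 and 92.7 CPM in WT and to 116, 110.5 and 76.0 CPM in sKO, which gave 85.1 ± 8.79 CPM for WT against 101 ± 21.8 CPM for sKO (SD over 3 libraries). Mrc1 alone made up 38.4% to 51.7% of this sum in WT and 34.9% to 39.3% in sKO. WT library 1 and sKO library 3 were nearly equal at the low end, and sKO libraries 1 and 2 stood above all others. Germ cell markers ran largely the other way: 8 of them summed to 2759, 1835 and 1855 CPM in WT and to 1266, 1276 and 1780 CPM in sKO. The library with the highest germ cell sum, WT library 1, thus had the lowest macrophage sum, and the pair of libraries with the lowest germ cell sums, sKO 1 and 2, had the highest macrophage sums. sKO library 3 did not follow that order, since its germ cell sum was below that of WT libraries 2 and 3 and so was its macrophage sum. The part of germ cell content in the macrophage values was not tested.

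**Figure D2:**
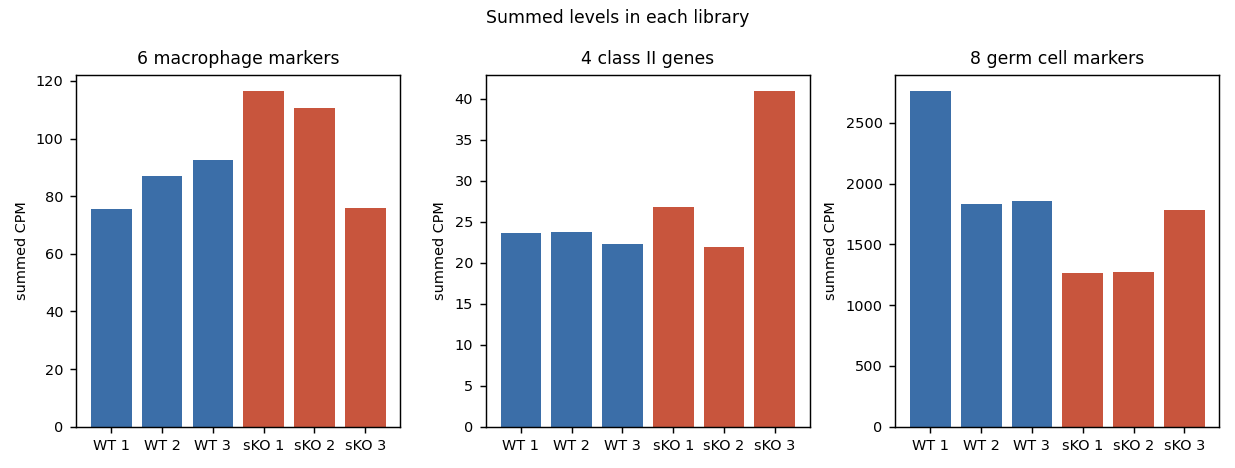
Summed CPM (vertical axes, from 0) of the 6 macrophage markers, the 4 class II genes and 8 germ cell markers in each library; blue bars are WT and red bars sKO. The macrophage sum is highest in sKO libraries 1 and 2, at 116 and 110.5 CPM, and the class II sum is highest in sKO library 3, at 40.9 CPM.

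The epididymal transcripts were in sKO library 1, which also had the highest macrophage sum. sKO library 2, with an epididymis sum of 11.7 CPM, below the 16.4 CPM of WT library 2, had nearly as high a macrophage sum. Without sKO library 1 the macrophage median was 0.22, without WT library 1 it was 0.14, and without both it was 0.02. In the last of these fits Adgre1 had a log2 fold change of -0.08, C1qa one of 0.03 and Csf1r one of 0.13. The part of epididymal tissue in these values was not tested.

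Class II genes followed different libraries. H2-Aa, the alpha chain of the I-A molecule, had 4.59, 2.70 and 2.79 CPM in WT and 4.61, 2.84 and 7.52 CPM in sKO. It was highest in sKO library 3, while sKO library 1 stood level with the highest WT library and sKO library 2 lay inside the WT range. The log2 fold change of H2-Aa was 0.57 (SE 0.35, 95% interval -0.21 to 1.35, edgeR adjusted p = 0.522), and it was 0.11 without sKO library 3 and 0.86 without WT library 1. H2-Ab1, which encodes the beta chain that pairs with H2-Aa, had 7.11, 10.3 and 9.18 CPM in WT and 7.61, 5.38 and 8.56 CPM in sKO. It was the one class II gene with a negative estimate (log2 fold change -0.30, SE 0.22, 95% interval -0.79 to 0.18, edgeR adjusted p = 0.586), and stayed negative with any 1 library left out (-0.49 to -0.13).

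The beta chain of the I-E molecule, H2-Eb1, varied least within the groups among the class II genes. It had 3.36, 3.12 and 3.10 CPM in WT and 4.85, 4.17 and 5.27 CPM in sKO. Every sKO library was above every WT library, at a mean 1.49-fold higher. Its log2 fold change was 0.58 (SE 0.21, 95% interval 0.12 to 1.04, edgeR unadjusted p = 0.0183, adjusted p = 0.238), and single left-out libraries moved it to between 0.46 and 0.67. The exact permutation test, two-sided over the 6 samples, gave p = 0.1, the smallest possible for 3 against 3. H2-Ea, the alpha chain gene of the same molecule, which is not expressed in mice of the b haplotype, had 0 counts in all 6 libraries, which allows up to 3 counts, or 0.165 to 0.186 CPM, in each. Such limits cover counting error only.

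Cd74, the invariant chain, had the largest estimate of the 10. It had 8.62, 7.58 and 7.20 CPM in WT and 9.65, 9.49 and 19.5 CPM in sKO. The sKO libraries 1 and 2 lay just above the WT range, and sKO library 3 held more than any other library by a wide margin. The log2 fold change of Cd74 was 0.73 (SE 0.27, 95% interval 0.13 to 1.33, edgeR unadjusted p = 0.0222, adjusted p = 0.256) and the same exact permutation test gave p = 0.1. Without sKO library 3 the log2 fold change was 0.26. When genes with low counts were kept in the fit, Cd74 passed the threshold at a log2 fold change of 0.72 (edgeR adjusted p = 0.0105); 0.439% of the 35085 genes in that fit were called higher and 2.83% lower, and the other 9 members were not called.

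**Figure D3:**
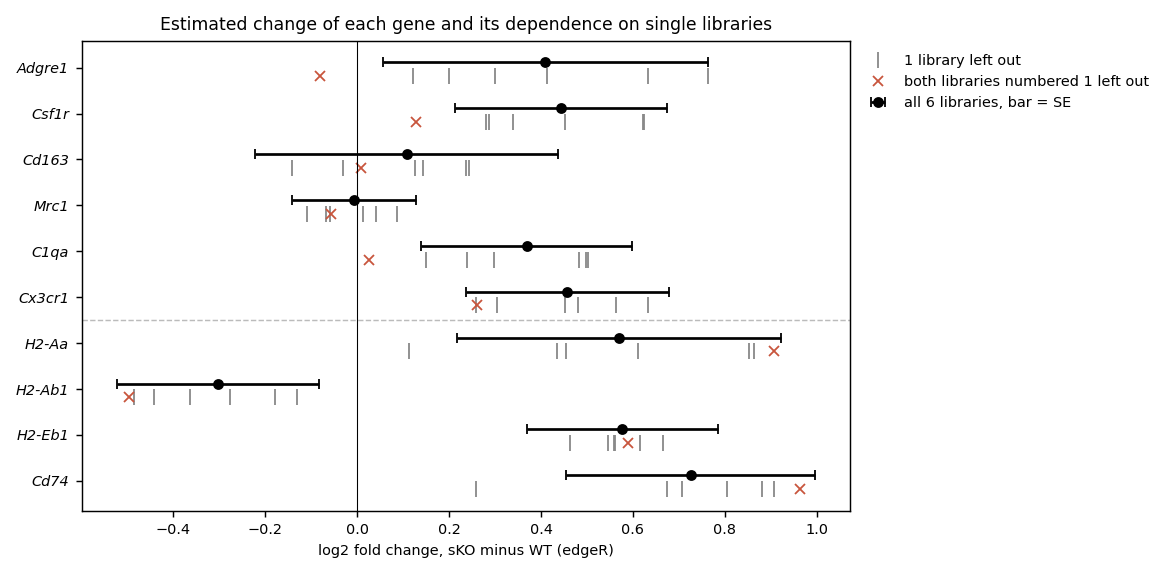
Estimated log2 fold change of sKO against WT (horizontal axis) for each gene, with macrophage markers above the dashed line and class II genes below it; black points are all 6 libraries with the SE, grey ticks leave out 1 library each and red crosses leave out both libraries numbered 1. H2-Eb1 stays between 0.46 and 0.67 in the grey ticks, whereas Cd74 ranges from 0.26 to 0.91 and Adgre1 from 0.12 to 0.76.

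Class II promoters share a module of X and Y boxes, to which the RFX complex and NF-Y bind and which recruits the coactivator CIITA. It is shown here for the class II genes whose promoter windows were at hand, because CIITA and RFX genes are described next. The windows are from RefSeq (GRCm38.p6) and run from 250 bases before to 50 bases after the gene's start. Capitals mark GCAAC (the core of the X1 box), CTGATTGG (the Y box) and TGACGTCA (a cyclic AMP response element), searched on both strands.
H2-Aa promoter, chr17:34287774-34288073, minus strand: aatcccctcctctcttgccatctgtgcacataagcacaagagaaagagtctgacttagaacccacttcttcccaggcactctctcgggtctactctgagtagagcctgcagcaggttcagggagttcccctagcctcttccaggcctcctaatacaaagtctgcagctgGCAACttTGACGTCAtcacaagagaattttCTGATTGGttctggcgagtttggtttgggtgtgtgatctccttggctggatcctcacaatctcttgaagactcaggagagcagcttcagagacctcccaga
H2-Eb1 promoter, chr17:34305617-34305916, plus strand: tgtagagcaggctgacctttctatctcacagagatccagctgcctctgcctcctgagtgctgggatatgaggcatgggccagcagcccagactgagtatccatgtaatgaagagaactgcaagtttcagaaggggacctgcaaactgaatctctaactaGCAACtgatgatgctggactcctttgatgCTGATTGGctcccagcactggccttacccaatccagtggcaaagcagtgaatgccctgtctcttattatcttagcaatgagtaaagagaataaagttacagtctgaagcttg
In both windows GCAAC preceded CTGATTGG on the sense strand, at 81 and 51 bases before the start in H2-Aa and at 91 and 62 bases before it in H2-Eb1. The distance between the first bases of these motifs was 30 bases in H2-Aa and 29 bases in H2-Eb1. TGACGTCA was found in H2-Aa, between GCAAC and CTGATTGG, at 74 bases before the start. Of 32851 RefSeq promoter windows of that length, 4.10% held CTGATTGG, 35.2% GCAAC, 1.58% both of these and 1.79% TGACGTCA. These matches are descriptions of the letters and not measured binding sites. RefSeq windows were also at hand for Cd163, Cx3cr1 and Mrc1, and CTGATTGG was in none of these 3, while GCAAC was in Cd163, at 242 and 187 bases before the start, and in Mrc1, after the start.

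The genes that switch class II on did not move as one. Ciita, the master coactivator of class II transcription, had 1.51, 1.65 and 0.807 CPM in WT and 2.76, 2.84 and 1.76 CPM in sKO, from 13 to 47 counts a library. Every sKO library was above every WT library, but sKO library 3, the one with the most Cd74 and H2-Aa, had the least Ciita of the 3. The log2 fold change of Ciita was 0.88 (SE 0.34, 95% interval 0.13 to 1.63, edgeR adjusted p = 0.276). Rfxap and Rfx5, subunits of the RFX complex that are expressed in many cell types, had estimates in the other direction (log2 fold changes -0.47 and -0.34, edgeR adjusted p = 0.0980 and 0.251). DESeq2 called Rfxap lower (adjusted p = 0.0269).

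In all, 14 of 19 genes of class II loading, processing and regulation were expressed enough to be tested, and edgeR called 0. At an unadjusted p under 0.05, 2 were higher (Ciita and the lysosomal protease gene Lgmn) and 2 lower (Rfxap and Rfx5); 8.54% of all genes were lower at that level. DESeq2 called 1 lower and limma-voom 0. Estimates were above 0 for 8 and below 0 for 6, with a median of 0.23 that turned to -0.06 without both libraries numbered 1. H2-DMa, whose product helps load peptides, had a log2 fold change of -0.24 (edgeR adjusted p = 0.552), the same sign as H2-Ab1; it was chosen after its values were seen.

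Interferon gamma is the classical inducer of Ciita and class II. Ifng itself had 0 counts in 5 libraries and 3 counts in sKO library 3, too few to test. Of 9 tested genes of its signalling axis, 7 had estimates above 0 with a median of 0.30, and edgeR called 0, with 3 higher and 0 lower at an unadjusted p under 0.05. Among them were the transcription factor Irf1 and the receptor chain Ifngr2, with log2 fold changes of 0.46 and 0.34 (edgeR adjusted p = 0.0962 and 0.112). DESeq2 called 2 of the 9 higher, Irf1 among them (adjusted p = 0.0447), and limma-voom called 0. Irf1 had 21.4, 24.8 and 26.1 CPM in WT and 34.9, 33.7 and 30.8 CPM in sKO, so that its groups did not overlap and sKO library 3 was the lowest of the sKO libraries. Cxcl9, an interferon gamma target chosen after its values were seen, had 1, 2 and 1 counts in WT and 8, 5 and 14 in sKO, and was too low to test. Cxcl10 and Socs1 of the same list, also chosen after their values were seen, overlapped between the groups. Their log2 fold changes were 0.30 and -0.002 (edgeR adjusted p = 0.824 and 0.999).

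**Figure D4:**
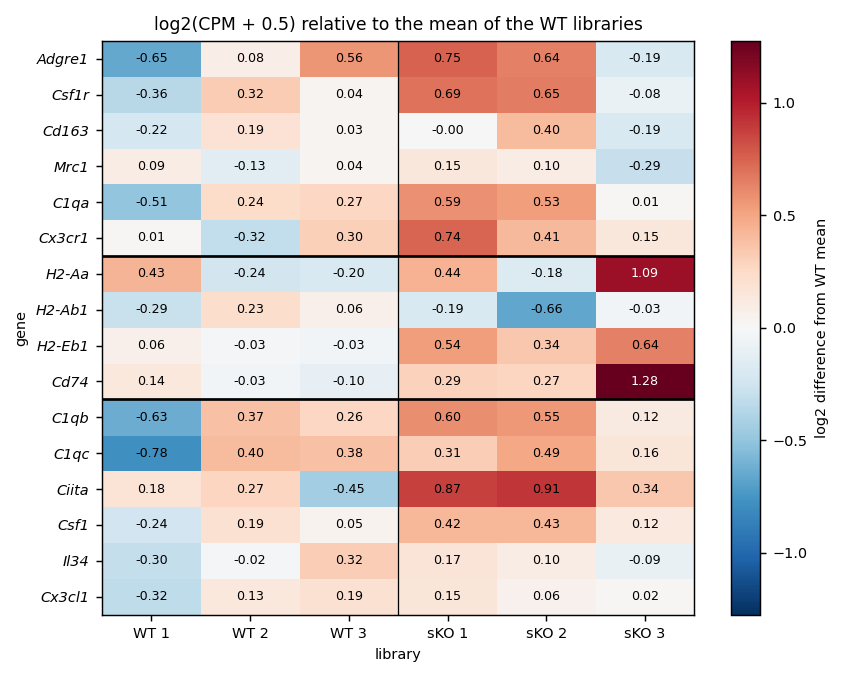
Level of each gene in each library as log2(CPM + 0.5) minus its mean over the WT libraries (colour and printed value); the upper block holds the macrophage markers, the middle block the class II genes and the lower block partner genes. Cd74 and H2-Aa reach 1.28 and 1.09 in sKO library 3, where Csf1r and Adgre1 stand at -0.08 and -0.19.

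Set against each other, the macrophage and class II sums diverged in sKO library 3. The 4 class II genes summed to 23.7, 23.8 and 22.3 CPM in WT and to 26.7, 21.9 and 40.9 CPM in sKO. Per CPM of macrophage marker, class II stood at 0.314, 0.273 and 0.240 CPM in WT and at 0.230, 0.198 and 0.538 CPM in sKO. With Mrc1 left out of the macrophage sum, the values were 0.650, 0.442 and 0.405 in WT and 0.353, 0.307 and 0.886 in sKO. Either way the sKO libraries held both the lowest values and the highest. The balance between the chains of I-A was also described. H2-Aa took 39.2%, 20.7% and 23.3% of the counts of H2-Aa and H2-Ab1 together in WT and 37.7%, 34.6% and 46.8% in sKO. These ranges overlap, and a difference in this share was not tested.

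Other cells that can carry class II were looked for by their markers, but which cells the class II RNA came from was not tested. B cell markers were scarce: 7 genes summed to 1.86 to 3.53 CPM in WT and 1.04 to 1.87 CPM in sKO. None was expressed enough to be tested, and Ighm was at 0 in all libraries. The dendritic cell list summed to 60.9 to 66.2 CPM in WT and 70.6 to 76.3 CPM in sKO, most of it Zbtb46, a transcription factor that endothelial cells also express. edgeR, DESeq2 and limma-voom called 0 of its 6 tested genes, of which 2 had estimates above 0, and 1 (Zbtb46) was higher at an unadjusted p under 0.05. In sKO library 3 its members went different ways, chosen after their values were seen: Xcr1 had 12 counts against 17 to 33 in the other 5 libraries and Flt3 52 against 39 to 53, while Itgae had 74 against 42 to 66 and Clec9a 6 against 2 to 5. T cell, NK cell, mast cell and neutrophil lists had 0 called genes by edgeR, DESeq2 and limma-voom and 0 at an unadjusted p under 0.05, and most of their genes (26 of 33) were too low to test. Trac and Trbc2 (T cells), Fcer1a (mast cells) and Ly6g (neutrophils) were at 0 in all 6 libraries. Other genes of the T cell and mast cell lists did have counts. Cd3e and Cd4 of the T cell list had 48 to 102 and 12 to 32 counts a library, and Hdc of the mast cell list had 553 to 696. Hdc was the only tested gene of the 8 in its list, and the other 7 were too low to test. In the T cell list 4 of 11 genes were tested and 7 were too low. The counts of Hdc, Cd3e and Cd4 therefore do not stand for their lists, and which cells this RNA came from was not tested. The annotation behind the counts is not given, and whether Trac, Trbc2 and Ighm lacked RNA or were missed in counting was not tested.

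Monocytes, the blood precursors of part of the tissue macrophages, were checked with 7 genes, of which 4 were tested and all 4 had estimates above 0 (median 0.60, and 0.13 without both libraries numbered 1). The sums were 16.2 to 25.0 CPM in WT and 22.4 to 39.9 CPM in sKO. edgeR, DESeq2 and limma-voom called 0. At an unadjusted p under 0.05 edgeR gave 1 higher, Plac8 (log2 fold change 0.82, edgeR adjusted p = 0.171), and 0 lower. Ly6c2, which marks classical monocytes, had 0 to 2 counts a library and Chil3 was at 0.

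A wider set of 32 macrophage genes gave smaller estimates than the 6 markers. Of these, 28 were tested, 26 had estimates above 0 and the median was 0.23. edgeR, DESeq2 and limma-voom called 0, and at an unadjusted p under 0.05 edgeR gave 3 higher and 0 lower. The 3 were the lysozyme gene Lyz2, the transcription factor gene Maf and Spi1, which encodes PU.1, the factor that specifies myeloid cells (log2 fold changes 0.56, 0.39 and 0.61, edgeR adjusted p = 0.336, 0.239 and 0.336). The list's sum was 295, 402 and 375 CPM in WT and 434, 447 and 377 CPM in sKO. Its largest parts, chosen after their values were seen, were Mpeg1 and Mertk. Mpeg1 had 63.2 to 72.0 CPM in WT and 61.4 to 92.0 CPM in sKO, and Mertk 54.5 to 58.2 and 56.3 to 64.7 CPM. Which cells this RNA came from was not tested. The list's median log2 fold change was -0.02 without both libraries numbered 1. Other somatic lists had estimates of the same size, with medians of 0.24 for 8 Sertoli, 0.31 for 7 Leydig, 0.29 for 6 myoid and 0.25 for 7 endothelial markers, against -0.61 for the germ cell markers; without both libraries numbered 1 these medians were 0.14, 0.04, -0.03, -0.03 and -0.34. Epididymis, adipose and red blood cell lists had 3, 5 and 5 tested genes with medians of 2.82, -0.27 and -0.29 (-0.49, -1.69 and -0.32 without both libraries numbered 1), and 0 called by the 3 tools or at an unadjusted p under 0.05 with edgeR.

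The last group was the signals that maintain or recruit macrophages. Csf1, the growth factor for CSF1R, had 19.1, 26.0 and 23.5 CPM in WT and 30.6, 30.6 and 24.8 CPM in sKO (log2 fold change 0.33, edgeR unadjusted p = 0.0492, adjusted p = 0.365). As with Csf1r, sKO libraries 1 and 2 were above all WT libraries and sKO library 3 was not. Il34, the second ligand of that receptor, and Cx3cl1, the ligand of CX3CR1, had log2 fold changes of 0.05 and 0.06 (edgeR adjusted p = 0.958 and 0.908). Of 17 signal genes, 12 were tested, 11 had estimates above 0 and the median was 0.22 (0.14 without both libraries numbered 1). edgeR, DESeq2 and limma-voom called 0, and edgeR gave 2 higher (Csf1 and Axl) and 0 lower at an unadjusted p under 0.05.

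Between genes, levels are compared per kb of exon (GENCODE M21 basic annotation, GRCm38), as CPM per kb in WT. C1qa was highest at 14.1 ± 3.98 (SD, n = 3), above H2-Ab1 at 7.33 ± 1.35 and Mrc1 at 6.83 ± 0.543, whose ranges overlapped. Cd74 at 5.51 ± 0.518, whose range overlapped with that of H2-Ab1, and Csf1r at 4.05 ± 0.951 came next. The range of Csf1r overlapped with that of H2-Aa at 2.98 ± 0.943. H2-Eb1, Cx3cr1 and Adgre1, at 1.91 ± 0.0859, 1.71 ± 0.388 and 1.51 ± 0.659, followed, and the ranges overlapped in every pair of these. Cd163 was lowest at 0.311 ± 0.0590. As counted here, H2-Ab1, the beta chain of I-A, stood above its alpha chain H2-Aa in WT. The strain is not named, and whether reads of both genes aligned equally well was not tested.

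Outside the 10 genes, the profiles most like the mean of the macrophage markers over the 6 libraries were those of Rhoc, Adamts7, Rpl36a, Nnat and Slc7a8. They differed from it by a root mean square of 0.0355 to 0.0502 on the log2 scale, among 14558 genes compared. The single markers stood at 0.131 for C1qa to 0.245 for Adgre1 from their own mean. The neighbours were picked as the nearest of all genes compared and the markers were not, so these distances cannot be ranked against each other. For class II the nearest were Kirrel2, Tomm6os, Cxcr4, Chd5 and Magea2, at 0.104 to 0.115, and the members stood at 0.176 for H2-Eb1 to 0.372 for H2-Ab1. None of these neighbouring profiles was called by edgeR (adjusted p = 0.359 to 0.589). With 6 libraries many genes share a profile, and the likeness is a description.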

How the data were processed

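RNA of 3 WT and 3 sKO samples of mouse testis at postnatal day 14 was captured with oligo-dT beads, per the labels' protocols. The authors deposited 1 table of raw counts by gene symbol; per the submitters' processing notes Trim Galore, HISAT2 and featureCounts were used with build mm39. For versions, annotation and strand setting, the sources used here say nothing. Columns named con and scKO were matched to WT and sKO by number.

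Counts were tested with edgeR 4.0.16 in R 4.3.3 (filterByExpr, TMM, robust quasi-likelihood F test, no covariates), with Benjamini-Hochberg adjustment over 18860 genes; called means an adjusted p under 0.05. CPM use all counts and TMM factors. SEs come from the F statistic and 95% intervals from its degrees of freedom. Alternatives were DESeq2 1.42.0, limma-voom (limma 3.58.1), DESeq2 size factors in edgeR, no low-count filter, a replicate block and left-out libraries. The members, the 19 other lists and the tests were chosen with earlier results of these data known. The named genes were the members, fixed partner genes, up to 3 genes with the smallest p of each list and, for likeness, the 5 nearest profiles with a mean of at least 1 CPM. Genes with predicted names (Gm, Rik, LOC or accession-like symbols) were left out of the likeness search. Genes outside this rule are marked. The values of 1 listed gene are not reported here. No pair of replicates matched within sampling noise (chi-square 4.81 to 22.7 per degree of freedom). In counts simulated for sKO against WT (18532 genes tested), edgeR found 70 of 100 genes shifted by 1 log2 unit and 97 of 100 shifted by 2, with 15 false calls. The shifted genes had a mean above 1 CPM, and the noise was drawn for each gene alone, without differences shared by a library. Shifts as small as the members' estimates were not simulated.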

Additional observations from a re-analysis of the deposited data

How the results depend on the processing

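The 10 members had 0 calls in every fit tried except the one without the low-count filter, where 1 (Cd74) was called. Of 120 alternative estimates of single members, 114 kept their sign. The 6 that reversed were Adgre1 without both libraries numbered 1 (-0.0810), Cd163 without WT library 1 (-0.0313) and without sKO library 2 (-0.141), and Mrc1 without WT library 1 (0.0408), WT library 3 (0.0135) and sKO library 3 (0.0873); the cause was not tested. With each library left out in turn Cd163 ranged from -0.141 to 0.243 and Mrc1 from -0.108 to 0.0873. The exact tests kept their direction with pseudocounts of 0.1 and 2. Leaving out each library in turn gave a macrophage median of 0.14 to 0.53 and a class II median of 0.19 to 0.76, the lowest without WT library 1 and without sKO library 3. Over all genes edgeR called 6 higher and 240 lower. The counts were 56 and 721 with DESeq2, 0 and 0 with limma-voom, 154 and 992 without the low-count filter and 155 lower without both libraries numbered 1. With 1 library left out they ranged from 0 to 31 higher and from 0 to 624 lower, with 0 in both directions without WT library 2, sKO library 1 or sKO library 2. The replicate block gave 0 higher and 21 lower and called 0 members. Deviations of same-numbered samples had correlations of -0.33, 0.12 and -0.26, and those of samples with unlike numbers ran from -0.25 to 0.43. With 3 samples a group, such correlations cannot show whether the numbers pair the samples. The low counts of Cd163 and Ciita and 3 samples a group limit the precision.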
